A study of Mus musculus with 2 samples.

Results

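Innate sensing and NF-kB signalling were described through 41 genes chosen by symbol, namely pattern recognition receptors, inflammasome proteins, signalling adaptors and kinases, and subunits and inhibitors of NF-kB. Of these symbols, 40 have a row among the 40879 gene symbols of the count tables. The remaining symbol, Ddx58, which encodes the viral RNA sensor RIG-I, has no row under that name, and the row Rigi, the current symbol of the same gene, is given with the other pathway genes. The rule goes by symbol and uses no measured value. Where a pair of values is given below, WT comes first and ratios are ERAP1+/- over WT.

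Intestinal tissue was compared between mice labelled wild type (WT) and mice labelled heterozygous for Erap1 (ERAP1+/-), without a treatment in the labels of either group. Per the methods, both groups were on the C57BL/6 background, 8 weeks old at the start, described as germ-free and kept in a specific pathogen free facility, and the tissue was colon. The untreated arms of that study drank regular water for 28 days. The altered allele carries loxP sites around exons 6 and 7 of Erap1 and was crossed with a Cre strain whose promoter is not named, and the sex of the mice is not given. RNA from 3 mice per genotype was pooled in equal amounts and sequenced from the 3' ends of polyadenylated transcripts, which gave 1 library per genotype. Counted reads came to 8114826 for WT and 8907515 for ERAP1+/-. Values are in CPM, reads scaled to a common library size, after TMM adjustment (trimmed mean of M values). Since 1 read stands for 1 transcript end in this assay, CPM was not divided by transcript length. With 1 library per genotype no difference could be set against the spread between mice, and no test was made. Intervals are exact 95% intervals of the read counts, or of the ratio of 2 read counts. They cover counting error only, and PCR copies of a molecule are counted as separate reads. The floor for a count of 0 was set at 3 reads, a one-sided limit that lies below the end of the exact interval. This floor is 0.386 CPM in WT and 0.322 CPM in ERAP1+/-.

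Erap1 itself had 229 reads in WT and 2 in ERAP1+/-. Reads from the 3' end lie outside exons 6 and 7 and therefore do not check the deletion. The count of 2 is far below what 1 intact allele of a heterozygote would give if both alleles of WT contribute equally. The second library is called ERAP1+/- here after its label. Markers of epidermis and of skeletal muscle, taken as sums, differed between the libraries more than any gene of the set did. The 12 markers of suprabasal epidermis summed to 3483 CPM in WT and 21.8 CPM in ERAP1+/-, and Ivl, Dsc1, Lce1a1 and Lce1b had no read in the latter. The 12 skeletal muscle markers summed to 1127 CPM and 21.7 CPM, and the 7 markers of basal stratified epithelium to 384 CPM and 40.6 CPM. The sum of the plasma cell markers went the other way, with 424 CPM in WT and 1865 CPM in ERAP1+/-. It was carried by Igha and Jchain, and of the 7 markers 5 had intervals above 1 and 2, Prdm1 and Sdc1, below 1. Goblet cell markers summed to 8356 CPM and 13549 CPM, with all 7 intervals above 1. Colonocyte markers summed to 8339 CPM and 5795 CPM, and markers of the small intestine and Paneth cells to 44.9 CPM and 64.8 CPM, with Sis, Apoa4, Defa24 and Defa17 at 0 in both. The higher sum of this last list was carried by Fabp2 (7.21 and 32.1 CPM). Lyz1 went the other way, with 89 and 51 reads and a ratio of 0.479 (0.332 to 0.683). The 12 macrophage markers, from cells that carry many of the receptors described here, summed to 293 CPM and 352 CPM. How far these differences in tissue content contribute to the values below was not tested, and in bulk RNA fewer cells of a type and less RNA per cell cannot be told apart.

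**Figure D1:**
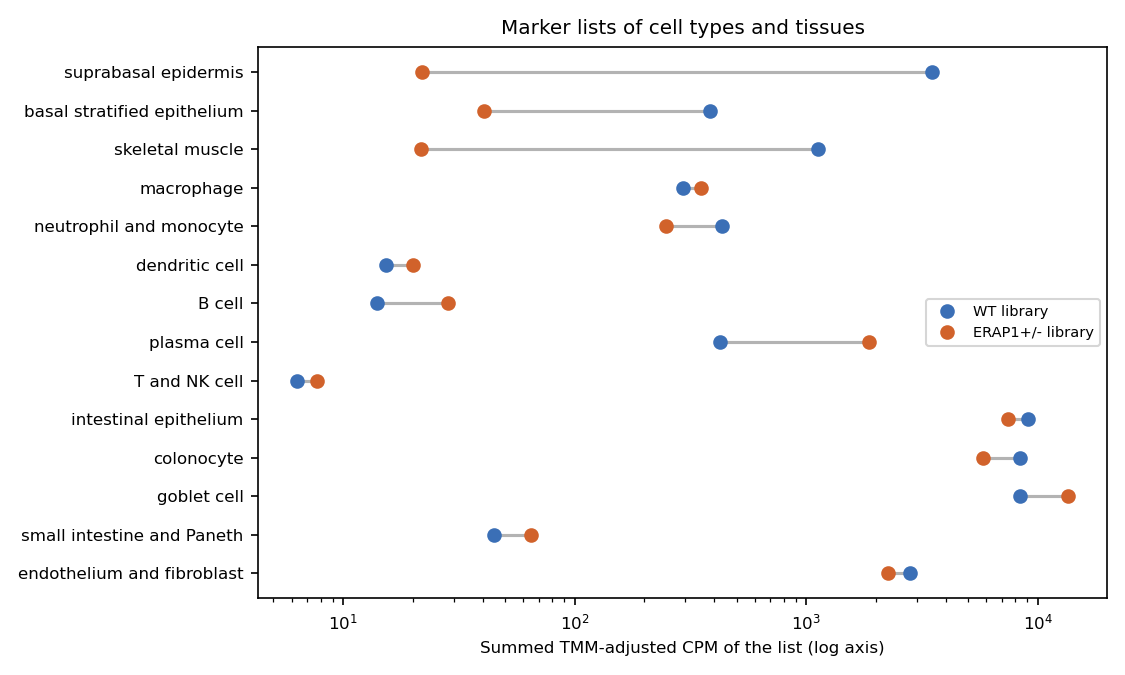
Summed TMM-adjusted CPM of 14 lists of marker genes (log axis) in the WT library (blue) and the ERAP1+/- library (orange), 1 library each. Suprabasal epidermis (3483 against 21.8 CPM) and skeletal muscle (1127 against 21.7 CPM) lie farthest apart, while the macrophage markers lie close together (293 against 352 CPM).

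Innate immune sensing begins with receptors that bind molecules of microbes or of damaged host cells. Toll-like receptors do this at the cell surface and in endosomes, and NOD-like, NAIP, AIM2-like and RIG-I-like receptors do it in the cytosol. Most Toll-like receptors signal through Myd88 and the Irak kinases to Traf6, which leads to activation of the IkB kinases, degradation of the inhibitor IkB-alpha and entry of NF-kB dimers into the nucleus. NAIP, NLR and AIM2 proteins can instead assemble inflammasomes, in which the adaptor Pycard (ASC) brings caspase-1 together so that it matures interleukins and cleaves gasdermin D. In the colon these pathways act in epithelial cells and in mononuclear phagocytes beneath them.

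Among the genes of this set, 38 had at least 10 reads over both libraries. Nlrp3 had 0 and 2 reads in the WT and ERAP1+/- libraries, and Tlr9 had none in either. A level of at least 4 on the log2(CPM + 1) scale in 1 or both libraries was reached by 27 genes, and 11 had at least 10 reads but stayed below it. Past this level, 1 of 27 genes (3.70%) differed by more than 2-fold, namely Nfkbiz, which was lower in the ERAP1+/- library. Over all genes past the level the share was 5.34%, made up of 1.39% higher and 3.96% lower in the ERAP1+/- library. Scaling by the total count instead of TMM gave the same single gene, and the genes lower in ERAP1+/- then made up 59.9% of all genes past 2-fold in place of 74.1%.

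The ratio of levels had an interval that excluded 1 for 17 of 38 genes (44.7%), against 44.4% of all genes with that many reads. Of these, 8 were higher in the ERAP1+/- library, where the share over all genes was 20.6%, and 9 were lower, where it was 23.8%. The remaining 21 ratios had intervals that included 1. With scaling by the total count, 12 genes were higher and 9 lower, against 4679 and 2814 of all 16142 genes with that many reads. The median difference in log2(CPM + 1) was -0.05 over the 38 genes, with quartiles at -0.32 and 0.21, against 0.00 over all genes. Differences of at most 0.5 on this scale were found for 30 of 38 genes (78.9%) and for 70.6% of all genes with at least 10 reads. Summed over the set, the level was 1924 CPM in WT and 1812 CPM in ERAP1+/-, a ratio of 0.942 (95% interval 0.921 to 0.963). This direction turned with scaling by the total count, which gave 1.03 (1.005 to 1.05), and the sum over all genes stood at 0.917 after TMM adjustment. The shares of the set lie near those of the whole table.

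**Figure D2:**
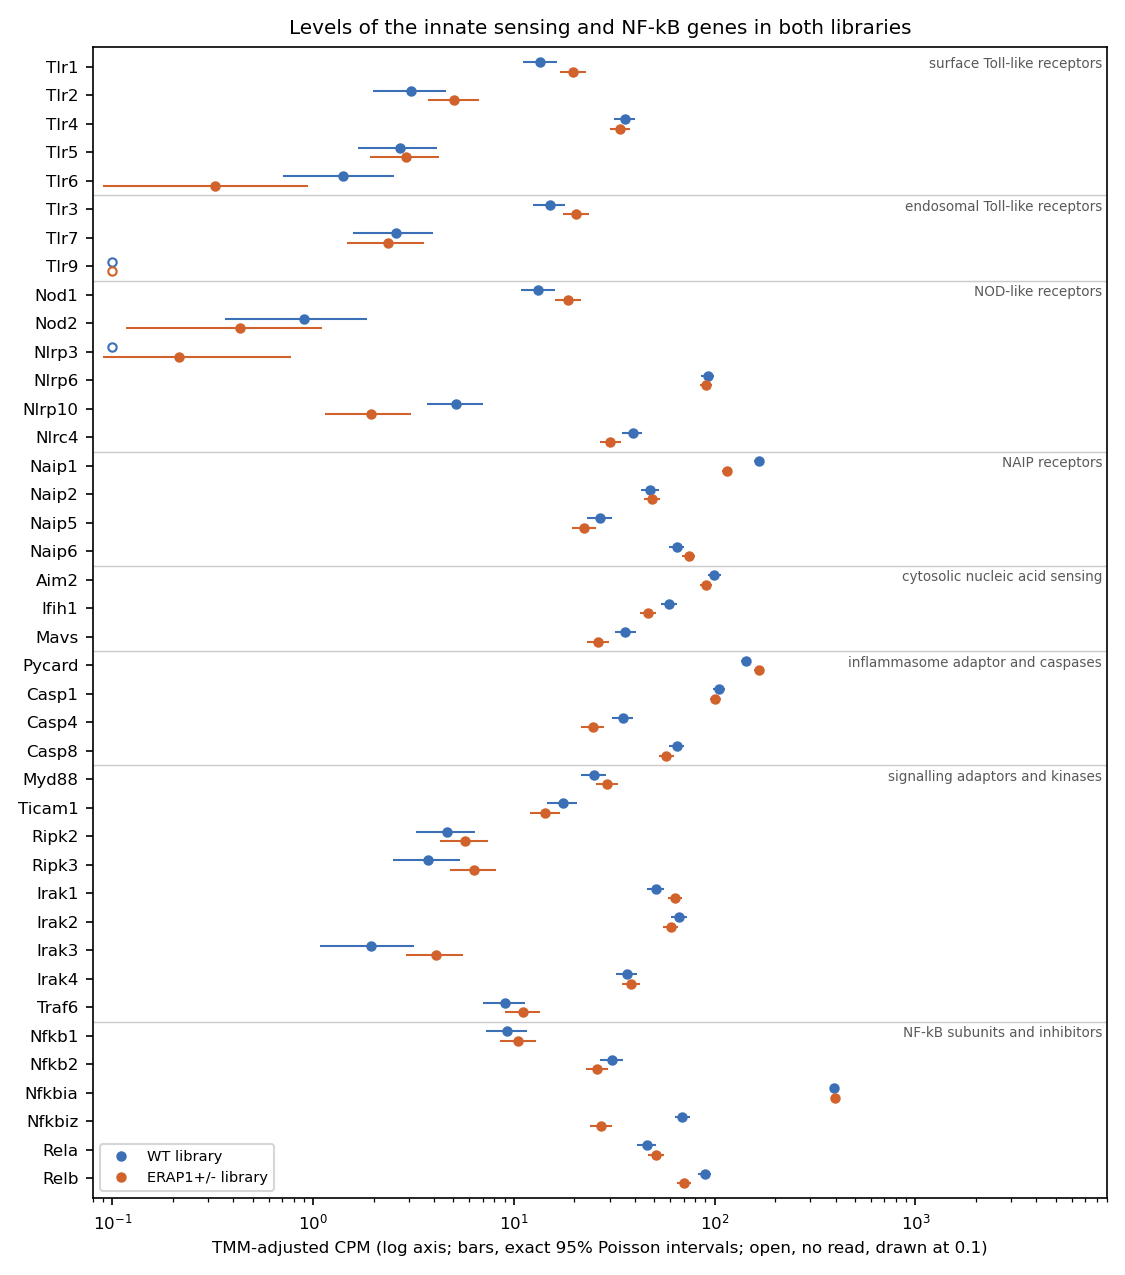
TMM-adjusted CPM (log axis) of the 40 genes in the WT library (blue) and the ERAP1+/- library (orange), with exact 95% Poisson intervals as bars and open points drawn at 0.1 for genes without a read. Levels run from no read for Tlr9 to 391 and 395 CPM for Nfkbia, and among the pairs whose bars lie apart are Nfkbiz (69.1 against 27.2 CPM) and Naip1 (166 against 115 CPM), higher in WT, and Pycard (143 against 166 CPM) and Irak1 (50.8 against 63.3 CPM), higher in ERAP1+/-.

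**Figure D3:**
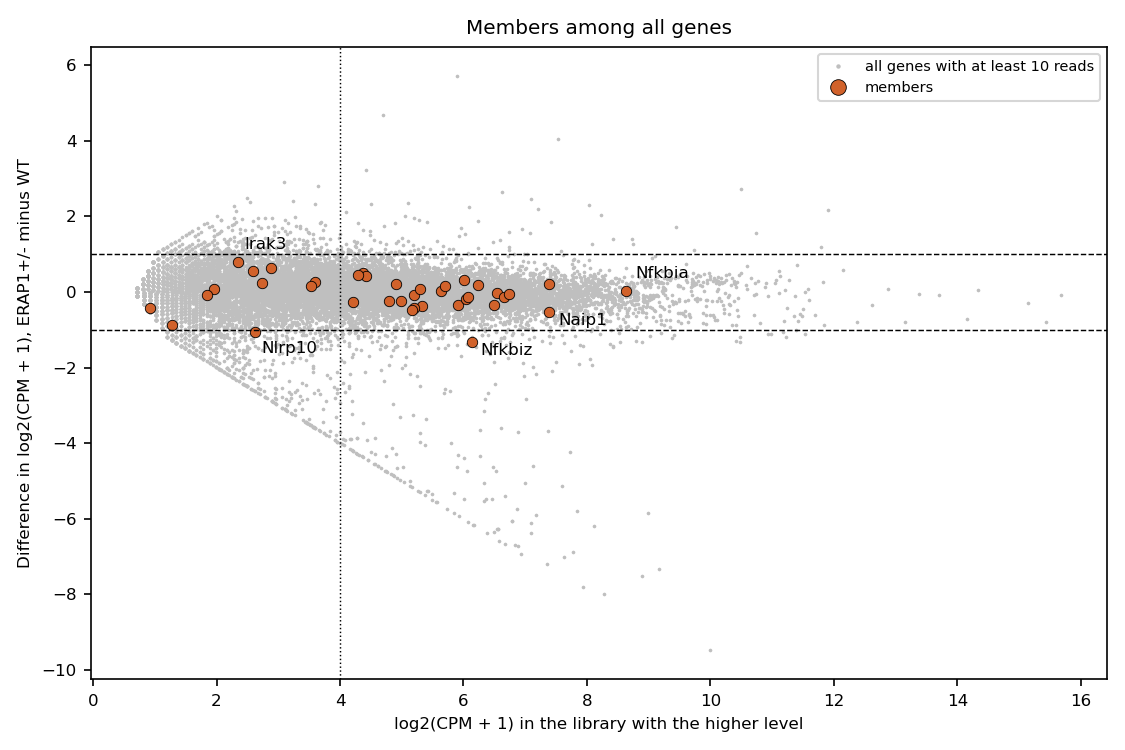
Difference in log2(CPM + 1), ERAP1+/- minus WT, against the log2(CPM + 1) of the library with the higher level, for all genes with at least 10 reads over both libraries (grey) and the 38 genes of innate sensing and NF-kB signalling (orange). Dashed lines mark 2-fold and the dotted line the level of 4, and to the right of it Nfkbiz alone of the orange points lies beyond 2-fold.

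Toll-like receptors of the cell surface bind bacterial lipoproteins (Tlr2 with Tlr1 or Tlr6), lipopolysaccharide (Tlr4) and flagellin (Tlr5). Tlr4 had the highest level of them, with 278 reads (35.8 CPM) in WT and 315 reads (33.9 CPM) in ERAP1+/-, a ratio of 0.946 (95% interval 0.803 to 1.12). Tlr1 had 105 reads (13.5 CPM) in WT and 183 reads (19.7 CPM) in ERAP1+/-, 1.46-fold higher in the latter (1.14 to 1.87). Its partner Tlr2 had 24 and 47 reads (3.09 and 5.05 CPM), a ratio of 1.64 whose interval of 0.980 to 2.80 reached 1. With scaling by the total count, the interval of Tlr2 was 1.07 to 3.05. Tlr6, the other partner of Tlr2, stood lower, with 11 reads in WT and 3 in ERAP1+/-, a ratio of 0.228 that spanned 0.0408 to 0.862 at this depth. For Tlr5, 21 and 27 reads (2.70 and 2.90 CPM) gave a ratio of 1.07 (0.585 to 1.998). Of these 5 receptors, 1 was higher, 1 lower and 3 did not differ beyond counting error, against 20.6% higher and 23.8% lower over all genes, and only Tlr1 and Tlr4 passed the level of 4.

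Receptors of nucleic acids in endosomes were represented by Tlr3, which binds double-stranded RNA, Tlr7, which binds single-stranded RNA, and Tlr9, which binds unmethylated CpG DNA. Tlr3 had 117 reads (15.1 CPM) in WT and 190 reads (20.4 CPM) in ERAP1+/-, 1.36-fold higher in the latter (1.07 to 1.72). Tlr7 had 20 and 22 reads (2.57 and 2.36 CPM), a ratio of 0.919 (0.478 to 1.77). Tlr9 had no read in either library, and its exact 95% intervals reach up to 0.475 CPM in WT and 0.397 CPM in ERAP1+/-.

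The NOD-like receptors split by level. Nlrp6, a sensor known from the intestinal epithelium, had 719 reads (92.5 CPM) in WT and 840 reads (90.3 CPM) in ERAP1+/-, a ratio of 0.976 (0.882 to 1.08). Nlrc4, which forms an inflammasome with the NAIP proteins, had 303 reads (39.0 CPM) and 281 reads (30.2 CPM), 1.29-fold lower in the ERAP1+/- library (1.09 to 1.52). Nod1, a sensor of bacterial peptidoglycan fragments, went the other way, with 103 reads (13.3 CPM) and 173 reads (18.6 CPM), 1.40-fold higher in the ERAP1+/- library (1.09 to 1.81). Few reads were found for Nod2, the receptor of muramyl dipeptide, which had 7 and 4 and a ratio of 0.477 (0.102 to 1.88). Nlrp3, the sensor of membrane damage and ion efflux, was at or under the floor of 3 reads in both libraries, so no fold is given.

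Nlrp10, a member of the family without the leucine-rich repeats, had 40 reads (5.15 CPM) in WT and 18 reads (1.93 CPM) in ERAP1+/-. This was 2.66-fold lower in the ERAP1+/- library (1.49 to 4.93), a difference of -1.07 in log2(CPM + 1), and its level stayed below 4 on that scale. In GRCm38 it spans 108921852 to 108930178 of chromosome 7 on the minus strand. The markers of suprabasal epidermis were also lower in that library, at 3483 CPM in WT and 21.8 CPM in ERAP1+/-, and their part in the difference of Nlrp10 was not tested.

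NAIP proteins bind flagellin (Naip5 and Naip6) and proteins of bacterial secretion systems (Naip1 and Naip2), and hand the signal to Nlrc4. Their genes lie side by side on chromosome 13 of GRCm38 between 100144063 and 100452869, about 25.4 Mb from Erap1 on the same chromosome. Naip1 had 1292 reads (166 CPM) in WT and 1070 reads (115 CPM) in ERAP1+/-, 1.45-fold lower in the latter (1.33 to 1.57). Naip6 had 503 and 689 reads (64.7 and 74.1 CPM), 1.14-fold higher in the ERAP1+/- library (1.02 to 1.29). For the other two the interval included 1. Naip2 had 369 and 453 reads (47.5 and 48.7 CPM) and a ratio of 1.03 (0.892 to 1.18), and Naip5 had 208 reads in each library (26.8 and 22.4 CPM) and a ratio of 0.835 (0.686 to 1.02). Summed, the NAIP genes stood at a ratio of 0.852 (0.805 to 0.902), or 0.929 (0.878 to 0.984) with scaling by the total count, and Naip1 held more reads than any other in both libraries. The members of this family resemble each other, and the value of Naip1 is uncertain for that reason. Among all 75-base stretches in the last 500 bases of the annotated Naip1 transcripts, 23.3% also occur in transcripts of Naip2, Naip3, Naip5 or Naip6 or of the pseudogene Naip3-ps1. For Naip2 and Naip6 no such stretch occurred in another gene. For Naip5 0.704% did, in transcripts of Ccar1 and of no other NAIP gene.

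In the cytosol, Aim2 binds double-stranded DNA and Ifih1 (MDA5) long double-stranded RNA, and Mavs is the mitochondrial adaptor of the RNA sensors. All 3 had lower levels in the ERAP1+/- library, where 8026 of all 16142 genes with at least 10 reads had a difference below 0. The interval lay below 1 for Ifih1 and Mavs, where the share over all genes was 23.8%. With scaling by the total count these 2 intervals stayed below 1, and the difference of Aim2 was -0.013 in log2(CPM + 1). Ifih1 had 459 reads (59.1 CPM) in WT and 433 reads (46.5 CPM) in ERAP1+/-, 1.27-fold lower in the latter (1.11 to 1.45). Mavs had 279 reads (35.9 CPM) and 245 reads (26.3 CPM), 1.36-fold lower (1.14 to 1.63). The ratio of Aim2, with 775 and 843 reads (99.7 and 90.6 CPM), was 0.909 (0.823 to 1.003). The row Rigi had 118 reads in WT and 136 reads in ERAP1+/-, a ratio of 0.963 (0.747 to 1.24). Summed without Rigi, the group stood at a ratio of 0.840 (0.782 to 0.902), and at 0.916 (0.852 to 0.984) with scaling by the total count.

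Among inflammasome proteins, the adaptor and the caspases differed in direction. Pycard had 1110 reads (143 CPM) in WT and 1543 reads (166 CPM) in ERAP1+/-, 1.16-fold higher in the latter (1.07 to 1.26). Casp4, which encodes caspase-11, the cytosolic receptor of lipopolysaccharide, had 271 reads (34.9 CPM) and 230 reads (24.7 CPM), 1.41-fold lower in the ERAP1+/- library (1.18 to 1.69). Casp1 had 820 and 938 reads (106 and 101 CPM), a ratio of 0.956 (0.869 to 1.05). Casp8, a caspase of death receptor signalling that also processes interleukins, had 503 and 533 reads (64.7 and 57.3 CPM) and a ratio of 0.885 (0.782 to 1.002). Summed, this group had a ratio of 1.002 (0.952 to 1.05) with TMM and 1.09 (1.04 to 1.15) with the total count.

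Signalling adaptors and kinases comprised 9 genes. Under TMM, 7 of 9 had a difference above 0, against 8116 of all 16142 genes with at least 10 reads. Intervals lay above 1 for 3 and below 1 for none, where the shares over all genes were 20.6% and 23.8%. The median difference was 0.25 in log2(CPM + 1). Total count scaling, which moved the median over all genes up by 0.112, also gave 7 above 0. The 3 intervals that excluded 1 make up 33.3% of the group, against 44.4% over all genes. Irak1, the kinase that leaves the receptor complex to bind Traf6, had 395 reads (50.8 CPM) in WT and 589 reads (63.3 CPM) in ERAP1+/-, 1.25-fold higher in the latter (1.09 to 1.42). Irak3 (IRAK-M), an inhibitor of this cascade known from macrophages, had 15 and 38 reads (1.93 and 4.08 CPM), 2.12-fold higher in the ERAP1+/- library (1.14 to 4.14). The level of Irak3 was below 4 on the log2(CPM + 1) scale, where its difference was 0.80. Ripk3, the kinase of necroptosis, had 29 and 59 reads (3.73 and 6.34 CPM), a ratio of 1.70 (1.07 to 2.75).

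The other kinases and adaptors had intervals that included 1. Myd88, the adaptor shared by most Toll-like receptors, had 195 reads (25.1 CPM) in WT and 271 reads (29.1 CPM) in ERAP1+/-, and its ratio of 1.16 (0.962 to 1.40) became 1.27 (1.05 to 1.53) with scaling by the total count. Ticam1 (TRIF), the adaptor of Tlr3, had 136 and 133 reads (17.5 and 14.3 CPM) and a ratio of 0.817 (0.638 to 1.05). Traf6, the ubiquitin ligase downstream, had 70 and 103 reads (9.01 and 11.1 CPM), a ratio of 1.23 (0.899 to 1.69). Ripk2, the kinase of Nod1 and Nod2, had 36 and 53 reads (4.63 and 5.70 CPM) and the same ratio of 1.23 with a wider interval of 0.790 to 1.93. Irak2, with 517 and 562 reads (66.5 and 60.4 CPM), and Irak4, with 283 and 358 reads (36.4 and 38.5 CPM), had ratios of 0.908 (0.804 to 1.03) and 1.06 (0.902 to 1.24). Macrophage markers also stood higher in the ERAP1+/- library, with 5 of 11 intervals above 1 (20.6% over all genes), none below and a summed ratio of 1.20 (1.14 to 1.27), and their part in the values of this group was not tested.

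**Figure D4:**
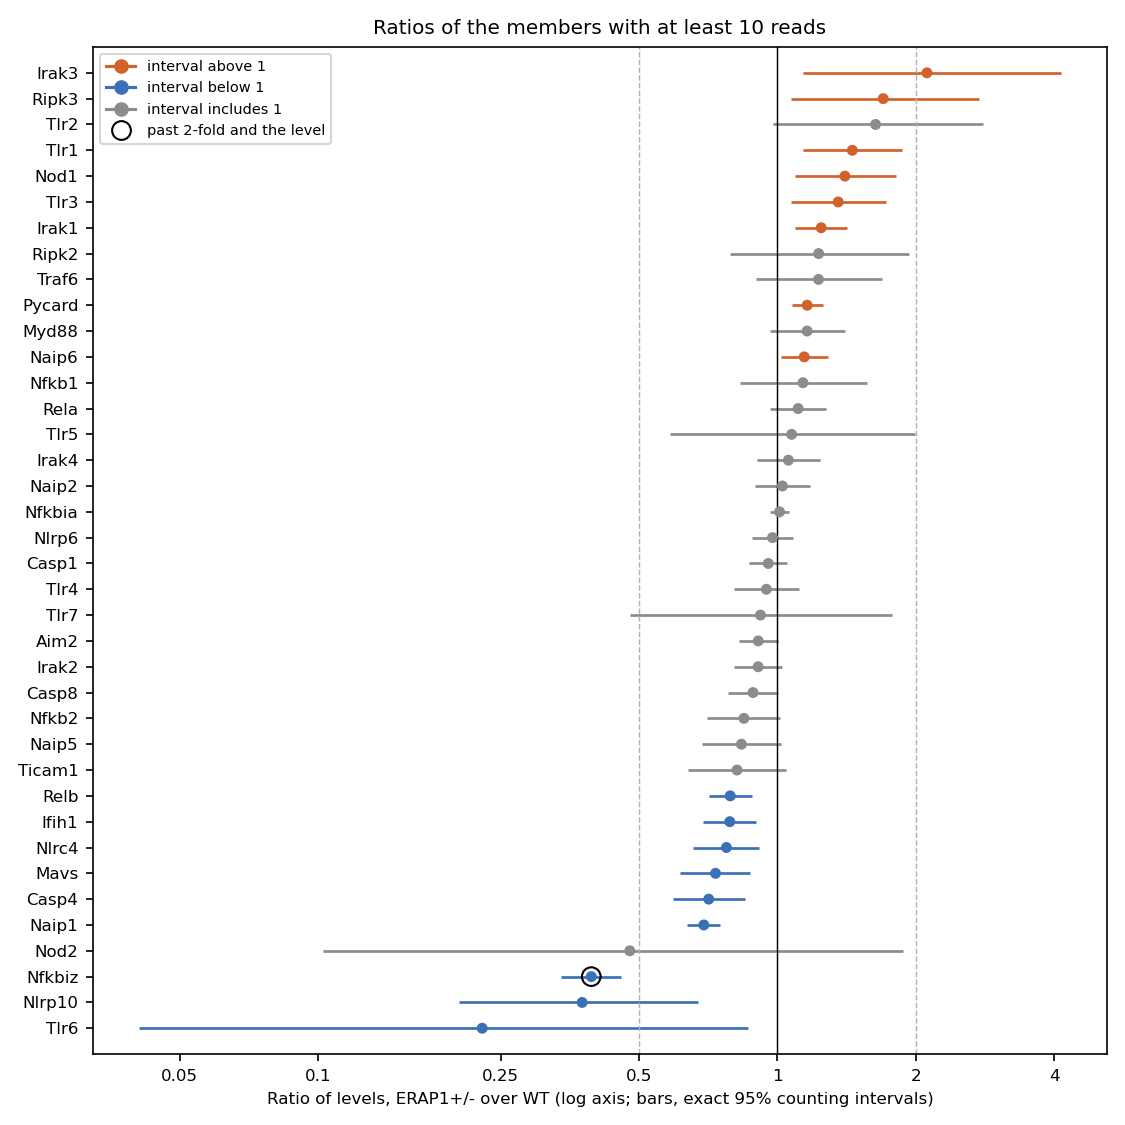
Ratio of levels, ERAP1+/- over WT (log axis), with exact 95% counting intervals, for the 38 genes with at least 10 reads, ordered by ratio. Orange marks the 8 intervals above 1, blue the 9 below 1 and grey the 21 that include 1, and the circle marks Nfkbiz, past both the level and 2-fold.

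Among subunits and inhibitors of NF-kB, Nfkbiz stood apart from the rest. Nfkbiz encodes IkB-zeta, a nuclear protein of the IkB family that is induced by Toll-like receptor, interleukin-1 and interleukin-17 signals and is needed for a secondary wave of NF-kB target genes. It had 537 reads (69.1 CPM) in WT and 253 reads (27.2 CPM) in ERAP1+/-. This was 2.54-fold lower in the ERAP1+/- library (2.18 to 2.96), or -1.31 in log2(CPM + 1). With scaling by the total count the ratio changed from 0.394 to 0.429 (0.368 to 0.499). In GRCm38 it spans 55811375 to 55838899 of chromosome 16 on the minus strand. Epidermal markers were lower in the same library, with intervals below 1 for all 12 suprabasal and all 7 basal genes. Colonocyte markers were lower there too, with 7 of 9 intervals below 1 (23.8% over all genes), 1 above and a summed ratio of 0.695. The part of the epidermal or the colonocyte markers in the difference of Nfkbiz was not tested.

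Nfkbia, which encodes IkB-alpha, the inhibitor that holds NF-kB in the cytoplasm and is itself a target of NF-kB, had the highest level of the whole set. Its 3040 reads (391 CPM) in WT and 3679 reads (395 CPM) in ERAP1+/- gave a ratio of 1.01, and this depth limited it to 0.963 to 1.06. Scaling by the total count moved the interval to 1.05 to 1.16. Relb, the subunit of the alternative pathway, had 694 reads (89.3 CPM) and 656 reads (70.5 CPM), 1.27-fold lower in the ERAP1+/- library (1.14 to 1.41). Nfkb2, which encodes the precursor that pairs with it, had 239 and 242 reads (30.8 and 26.0 CPM) and a ratio of 0.846 (0.704 to 1.02). Of the subunits of the classical pathway, Rela and Nfkb1 lay on the other side of 1, within counting error. Rel (c-Rel), given below with the other pathway genes, was lower in the ERAP1+/- library, with a ratio of 0.582 (0.429 to 0.788). Rela (p65) had 356 and 473 reads (45.8 and 50.8 CPM), a ratio of 1.11 (0.965 to 1.28), and Nfkb1 (p105 and p50) had 72 and 98 reads (9.27 and 10.5 CPM), a ratio of 1.14 (0.830 to 1.56).

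Several genes of this set carry the letters of an NF-kB site close to their start. The motif GGANTTNCC was searched on both strands in the 250 bases upstream of each RefSeq transcript start (GRCm38.p6), where a palindromic match can count on both strands as overlapping matches. It occurred in 1035 of 32851 promoters (3.15%) and in 986 of 27025 genes with a promoter (3.65%). Of the genes in this set, 34 had a promoter entry and 8 held the motif (23.5%), namely Tlr2, Tlr3, Tlr6, Nlrp3, Naip5, Casp4, Nfkb2 and Nfkbia. Nfkbia, Nfkb2 and Casp4 are shown because they are an inhibitor, a subunit and a sensor, and their ratios were 1.01, 0.846 and 0.709. Each line gives the 250 upstream bases 5' to 3' on the strand of the gene, with the motif in capitals.
Nfkbia, chr12:55492648-55492897, minus strand: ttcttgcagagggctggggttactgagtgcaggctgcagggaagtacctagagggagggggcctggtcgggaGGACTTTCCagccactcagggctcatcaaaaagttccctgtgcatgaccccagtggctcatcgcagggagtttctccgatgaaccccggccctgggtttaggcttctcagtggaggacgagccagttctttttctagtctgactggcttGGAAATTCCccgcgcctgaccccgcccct
Nfkb2, chr19:46304487-46304736, plus strand: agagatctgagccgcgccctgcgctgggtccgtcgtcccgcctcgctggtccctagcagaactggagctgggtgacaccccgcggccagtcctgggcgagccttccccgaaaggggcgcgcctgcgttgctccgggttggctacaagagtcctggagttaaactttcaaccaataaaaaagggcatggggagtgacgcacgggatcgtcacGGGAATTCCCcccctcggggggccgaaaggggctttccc
Casp4, chr9:5308599-5308848, plus strand: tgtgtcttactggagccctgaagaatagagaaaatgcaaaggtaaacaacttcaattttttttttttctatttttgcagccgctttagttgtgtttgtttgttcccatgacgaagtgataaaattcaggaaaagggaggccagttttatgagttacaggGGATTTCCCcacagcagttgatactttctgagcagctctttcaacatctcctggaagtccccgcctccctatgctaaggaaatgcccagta
The matches begin 178 and 29 bases before the start of Nfkbia and 91 bases before that of Casp4. In Nfkb2 the matches on both strands overlap by all but 1 base, 39 and 38 bases before the most upstream of its starts. Nfkbiz has no entry among the promoters used. A match is a description of these letters and was not tested as a binding site, and the genes that hold it did not share a direction. With at least 10 reads, the interval was above 1 for Tlr3, below 1 for Casp4 and Tlr6, and included 1 for Tlr2, Naip5, Nfkb2 and Nfkbia.

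The rest of the pathway was covered by 109 further genes in the tables, of which 95 had at least 10 reads. Intervals lay above 1 for 20 of them, below 1 for 19 and included 1 for 56 (25, 12 and 58 under total count scaling), and the median difference in log2(CPM + 1) was -0.03. The 39 intervals that excluded 1 make up 41.1%, near the 44.4% over all genes. Past the level of 4, 2 of 48 genes (4.17%) differed by more than 2-fold, both lower in the ERAP1+/- library, against 5.34% of all genes. Trib1, a pseudokinase that guides a ubiquitin ligase to its targets, had 3453 reads (444 CPM) in WT and 1666 reads (179 CPM) in ERAP1+/-, 2.48-fold lower in the latter (2.34 to 2.63). Nlrp9b, an NLR known from intestinal epithelial cells as a sensor of viral RNA, had 282 and 139 reads (36.3 and 14.9 CPM), 2.43-fold lower (1.98 to 2.998).

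The IkB kinase complex had intervals that included 1. Its catalytic subunits Ikbkb (365 and 404 reads) and Chuk (275 and 336 reads) had ratios of 0.925 (0.801 to 1.07) and 1.02 (0.868 to 1.20), and their regulatory subunit Ikbkg (132 and 130 reads) had 0.823 (0.641 to 1.06). Over 25 kinases and ubiquitin ligases with at least 10 reads, 3 intervals lay above 1, 4 below and 18 included it, so that 28.0% excluded 1 against 44.4% over all genes. Total count scaling gave 3, 2 and 20. The 4 genes lower under TMM were the IkB kinase relative Ikbke, with 90 and 61 reads (11.6 and 6.56 CPM) and a ratio of 0.566 (0.402 to 0.792), and Birc3, Tab2 and Peli1, with ratios of 0.762, 0.857 and 0.902. Traf1, an NF-kB-induced adaptor, had 8 and 38 reads (1.03 and 4.08 CPM), a ratio of 3.97 (1.82 to 9.85). Of 7 other NF-kB and IkB genes, Bcl3 and Rel were lower in the ERAP1+/- library and the other 5 intervals included 1, against 23.8% lower over all genes. With scaling by the total count, 2 were higher, 2 lower and 3 included 1. Bcl3, a nuclear IkB protein like IkB-zeta, had 302 and 220 reads (38.9 and 23.6 CPM), 1.64-fold lower (1.38 to 1.96). Rel, the subunit c-Rel, had 109 and 76 reads (14.0 and 8.17 CPM), 1.72-fold lower (1.27 to 2.33). Of the 15 negative regulators with at least 10 reads, 1 was higher, 3 were lower and 11 did not differ beyond counting error, so that 26.7% excluded 1 against 44.4% over all genes. Total count scaling gave 2, 2 and 11. Tnfaip3 (A20), the main feedback inhibitor, had 58 and 69 reads (7.46 and 7.42 CPM), a ratio of 0.994 (0.691 to 1.43), while Tnip3, an A20-binding protein, had 105 and 244 reads (13.5 and 26.2 CPM), a ratio of 1.94 (1.54 to 2.46).

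A list of cofactors, chaperones and further adaptors of Toll-like receptor signalling had 5 of 10 intervals above 1 and none below, against 20.6% above and 23.8% below over all genes. These 5 were Cd14, Hsp90b1, Unc93b1, Cnpy3 and the adaptor Sarm1, the last with 3 and 14 reads only. Cd14, the co-receptor of Tlr4 and a marker of monocytes and macrophages, had 114 and 218 reads (14.7 and 23.4 CPM), a ratio of 1.60 (1.27 to 2.02). Hsp90b1 (gp96), the chaperone that folds most Toll-like receptors and many secreted proteins, had 3540 and 6000 reads (456 and 645 CPM), a ratio of 1.42 (1.36 to 1.48), in the library in which the plasma cell and goblet cell markers were also higher. Unc93b1, which carries the nucleic acid receptors to endosomes, had 256 and 373 reads (32.9 and 40.1 CPM), a ratio of 1.22 (1.04 to 1.43). The part of the secretory and myeloid markers in these values was not tested.

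Inflammasome and necroptosis effectors went in both directions, with 3 intervals above 1, 2 below and 3 that included it, where 20.6% and 23.8% of all genes lay above and below. Il18, which the intestinal epithelium makes constitutively, had 1893 and 2828 reads (244 and 304 CPM), a ratio of 1.25 (1.18 to 1.32). Il1b, made mainly by myeloid cells, had 9 and 37 reads (1.16 and 3.98 CPM), a ratio of 3.43 (1.63 to 8.09). Gsdmd, the pore-forming substrate of Casp1 and Casp4, had 462 and 383 reads (59.5 and 41.2 CPM), 1.44-fold lower in the ERAP1+/- library (1.26 to 1.66). Of the remaining sensors with at least 10 reads, 3 were higher, 5 lower and 9 not different beyond counting error, so that 47.1% excluded 1 against 44.4% over all genes. Total count scaling gave 4, 3 and 10. Sting1, the adaptor of cytosolic DNA sensing, had 57 and 124 reads (7.34 and 13.3 CPM), a ratio of 1.82 (1.32 to 2.53), and Zbp1, a sensor of Z-form nucleic acids, had 83 and 55 reads (10.7 and 5.91 CPM) and a ratio of 0.554 (0.386 to 0.788).

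**Figure D5:**
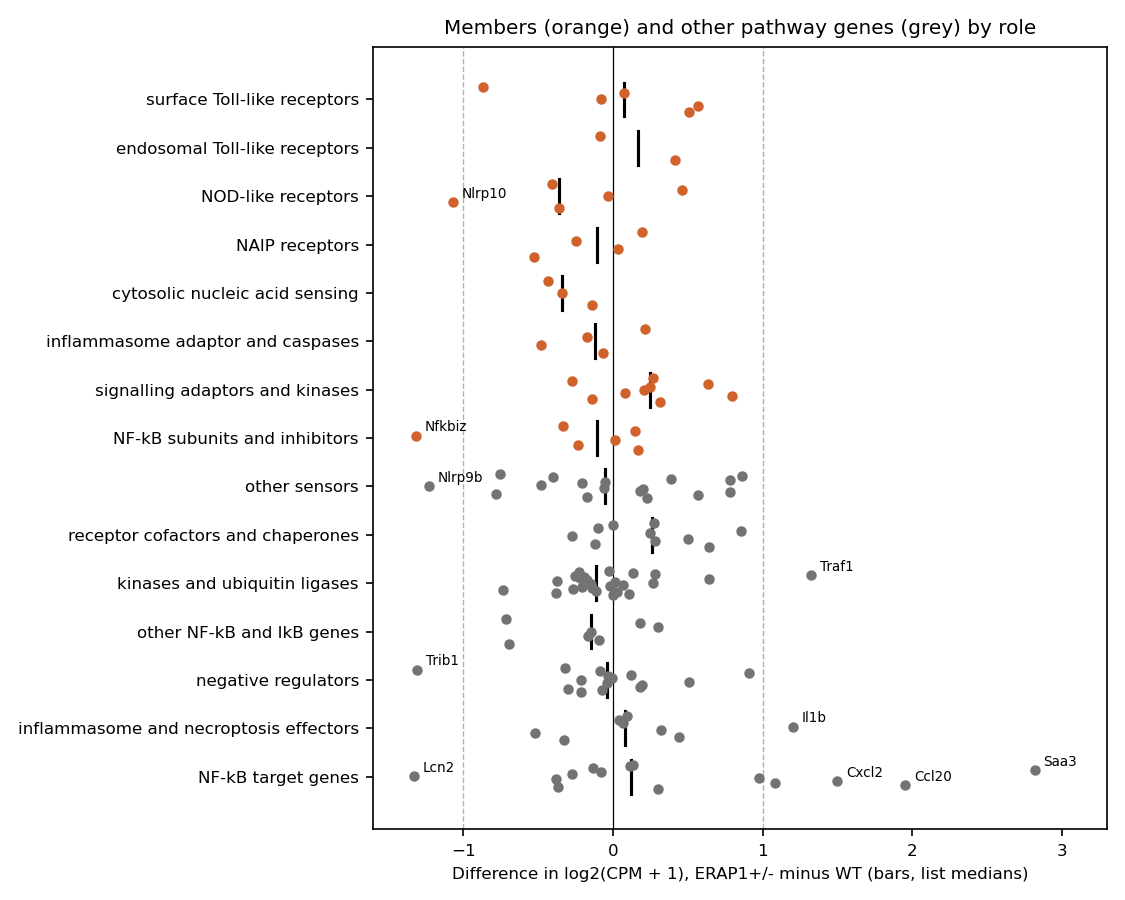
Difference in log2(CPM + 1), ERAP1+/- minus WT, for each gene with at least 10 reads, by role, with the genes of the set in orange, other pathway genes in grey and black bars at list medians. Dashed lines mark 2-fold. Among the genes of the set, Nfkbiz (-1.31) and Nlrp10 (-1.07) alone lie beyond 2-fold on this scale, both on the lower side. The added 1 CPM shrinks differences at low level. By ratio of levels, Tlr6 (0.228), Nod2 (0.477, interval including 1) and Irak3 (2.12, higher in ERAP1+/-) also pass 2-fold. Other pathway genes lie beyond it on both sides, and the widest spread is among the NF-kB target genes, from Lcn2 (-1.33) to Saa3 (2.82).

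Known targets of NF-kB differed in both directions, and 4 of 21 passed the level of 4. Of 21 targets, 14 had at least 10 reads, with 5 intervals above 1, 3 below and 6 that included it, so that 57.1% excluded 1 against 44.4% over all genes. Total count scaling gave 6, 1 and 7. Saa3, a serum amyloid A protein, had 6 reads (0.772 CPM) in WT and 107 reads (11.5 CPM) in ERAP1+/-, a ratio of 14.9 (6.62 to 41.5). Ccl20, a chemokine of the epithelium over lymphoid follicles, had 2 and 36 reads, a ratio of 15.04 (3.87 to 129). Cxcl1, a chemokine for neutrophils, had 3 and 18 reads, a ratio of 5.01 (1.46 to 26.6), and Icam1, an adhesion molecule, had 28 and 75 reads, a ratio of 2.24 (1.43 to 3.59). Cxcl2, another chemokine for neutrophils, had no read in WT and 17 in ERAP1+/-, 4.73-fold higher with WT set at 3 reads, while the exact 95% interval of the ratio begins at 3.45. Lcn2, which binds bacterial siderophores, had 39 and 13 reads (5.02 and 1.40 CPM), 3.59-fold lower in the ERAP1+/- library (1.88 to 7.33). At high level Saa1 was close between the libraries, with 12924 and 14631 reads (1663 and 1573 CPM) and a ratio of 0.946 (0.923 to 0.968). The direction of Saa1 turned with scaling by the total count, which put its interval above 1. The neutrophil and monocyte markers went in both directions. Of 8 intervals, 5 lay above 1 and 1 below, where 20.6% and 23.8% of all genes lay above and below. Above 1 were, among others, S100a8 (49 and 165 reads) and S100a9 (52 and 171 reads). Below 1 was Ly6g (2867 and 1367 reads), which set the summed ratio at 0.572. Csf3r (1 and 5 reads), Cxcr2 (3 and 1) and Mmp8 (2 and 6), of the same list, had few reads. The sum is therefore not taken as a measure of neutrophils. The part of neutrophils and monocytes in the chemokine values was not tested.

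The motif occurred in 5 of 15 targets with a promoter (33.3%), namely Cxcl1, Cxcl2, Icam1, Il6 and Tnfaip2. The upstream bases of Cxcl2 are shown as an example from a target that was found in 1 library alone, with the match 96 bases before the start.
Cxcl2, chr5:90903649-90903898, plus strand: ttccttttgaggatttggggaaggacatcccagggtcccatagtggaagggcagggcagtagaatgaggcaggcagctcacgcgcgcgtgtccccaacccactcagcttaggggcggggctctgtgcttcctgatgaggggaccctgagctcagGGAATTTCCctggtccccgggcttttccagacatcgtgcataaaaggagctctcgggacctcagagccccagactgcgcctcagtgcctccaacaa
Of the 5, Cxcl1, Cxcl2 and Icam1 had intervals above 1 (20.6% over all genes), Tnfaip2 had 191 and 248 reads and a ratio of 1.08 (0.894 to 1.32), and Il6 had no read in either library. Among targets without a match, Saa3 and Ccl20 also had intervals above 1, and Lcn2 had one below 1. A link between the motif and these differences was not tested.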

How the data were processed

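For each gene symbol, the deposited values are raw counts of reads, in 1 library per genotype from pooled RNA of 3 mice. The methods name STAR with HTSeq-count in one place and Bowtie2 with RSEM, also listed in the submitters' processing notes with GRCm38, in another, and strand settings of the counting are not given in the sources used here. TMM factors (0.958 for WT, 1.04 for ERAP1+/-; edgeR 4.0.16, R 4.3.3), CPM and log2(CPM + 1) were computed over 40879 symbols. Genes counted as past 2-fold on this scale had to reach 4 in either library. For ratios, 95% intervals were taken from the exact binomial split of a gene's reads (scipy 1.17.1), for genes with at least 10 reads, and the script was tested on simulated data. No test was made, since 1 library per genotype leaves no residual degrees of freedom. Every gene of the set is reported. Of other pathway genes, those named passed 2-fold, had an interval excluding 1 or define a step. Members, pathway lists and marker lists were chosen with earlier results of these data known. Alternatives were total count and DESeq2 1.42.0 scaling, a pseudocount of 0.1, other filters, a 4-fold threshold and 99% intervals. Coordinates and transcripts are GENCODE on GRCm38, and promoters are RefSeq on GRCm38.p6.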

Additional observations from a re-analysis of the deposited data

How the results depend on the processing

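The count of genes past 2-fold was 1 of 27 with TMM, total count and DESeq2 scaling, with a pseudocount of 0.1, and with TMM computed without the epidermis, muscle and plasma cell markers, an alternative chosen after seeing the data. With a filter of at least 10 reads in 1 library it was 2 (Nfkbiz and Nlrp10, both lower; 9.06% of all genes), without a filter 2 (both lower; 6.57%) and at 4-fold 0 (0 lower; 1.997%), by construction of the filters and the threshold. With 99% intervals, 4 genes were higher in place of 8 and 8 lower in place of 9, against 34.0% of all genes. Scaling by the total count moved the median over the set to 0.074, while that over all genes moved by 0.112 to 0.11. It turned the sign of Tlr4, Tlr7, Nlrp6 and Casp1, whose intervals included 1, and put Tlr2, Myd88, Nfkbia and Rela above 1. The 17 genes with an interval excluding 1 kept their direction and remained outside 1 under it. Naip1 moved to -0.40, Pycard to 0.34 and Nfkbia to 0.14 in log2(CPM + 1). No paired analysis was possible because only 1 library stands for a genotype, and leaving out a library was not possible either. Depth limits Tlr6, Nod2, Nlrp3 and Tlr9, which had at most 11 reads in a library.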
